A study of Homo sapiens with 6 samples.

Results

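The 10 genes described here encode receptors that let myeloid cells sense chemoattractants, nucleotides, prostaglandin E2 and related lipids. They were chosen by name with earlier results of the same comparison in view, so their changes are given as a description and support nothing by themselves. Of the 10 names, 8 were found among the 23858 genes of the deposited table: C5AR1, C3AR1, CXCR4, CCR2, P2RY2, PTGER4, S1PR4 and GPR141. FPR1 and PTGER2 were not among them. The lowest sum of reads over the 6 libraries of any gene in the table was 21, and these 2 receptors were not analysed here. The samples are NB4 cells, cells grown from a human acute promyelocytic leukaemia with a PML-RARA fusion gene, and both groups come from this single line. The control group holds 3 libraries from cells without arsenic trioxide, and the arsenic trioxide group holds 3 libraries from cells treated for 6 h. The series title ties the treatment to rapid degradation of the fusion protein. Neither the dose nor what the control cells received is given in the sources used here. They also leave out whether replicates were separate cultures, and a p-value then covers no more than the spread among the libraries. Total RNA was sequenced after removal of ribosomal RNA, and levels are given as RPKM, the reads of a gene scaled to its exon length and to all reads counted in genes of that library.

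All 10 proteins are G protein-coupled receptors, which cross the membrane several times and signal through heterotrimeric G proteins. C5AR1 and C3AR1 bind the complement fragments C5a and C3a, FPR1 binds formylated peptides of bacteria and mitochondria, and CXCR4 and CCR2 bind the chemokines CXCL12 and CCL2. These receptors steer the movement of neutrophils and monocytes, and CXCR4 also holds blood cell progenitors in the marrow. P2RY2 senses extracellular ATP and UTP, and PTGER2 and PTGER4 answer prostaglandin E2 by raising cyclic AMP. S1PR4 binds sphingosine 1-phosphate and GPR141 is an orphan with no settled ligand, so the set is wider than its working name.

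The libraries held 19361333 to 22609019 reads counted in genes, recovered from the RPKM values. For 1 kb of exon, the limit that a count of 0 allows (3 reads) was 0.133 to 0.155 RPKM by counting error alone. Of 6 promyelocyte markers 5 were listed, with a summed level of 998 to 1389 RPKM in the controls and 667 to 1006 RPKM after arsenic trioxide, and none of the 4 erythroid or 4 fibroblast markers was listed. MPO, the peroxidase of the granules, makes up most of that sum. AZU1, another granule protein, was the promyelocyte marker that fell, from 42.6, 54.8 and 54.1 RPKM to 27.9, 25.3 and 22.0 RPKM (adjusted p in limma-trend = 0.00258), and the other 4 did not pass. CD3D was the listed gene of 4 T cell markers (3.04 to 4.22 RPKM over the 6 libraries) and EPCAM that of 4 epithelial markers (4.50 to 6.72 RPKM). The part of these markers in the results below was not tested.

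Of the 8 listed receptors, 7 had lower RNA after arsenic trioxide and C5AR1 had more. The mean over the 6 libraries reached 1 RPKM, the filter of the test, in 7 receptors, and CCR2 lay below it. In a limma-trend fit of log2 of RPKM + 1 over 16803 genes, all 7 tested receptors had a Benjamini-Hochberg adjusted p under 0.05, 6 lower and 1 higher, where 25.4% of all tested genes were called, 13.4% lower and 12% higher. Of the 7, 5 had a fitted log2 fold change of -1 or less, as did 1.55% of all tested genes among those called lower, and 1 had a change of 1 or more (2.04% called higher). The values of the 3 libraries of each group did not overlap in any of the 7, as in 44.6% of all tested genes (21.9% higher, 22.6% lower). Because the receptors were picked with this contrast known, nothing is read from these counts. The median fitted log2 fold change was -1.20 over the 7 receptors and -0.0033 over all tested genes. In bulk RNA, fewer cells that express a receptor and less of its RNA per cell cannot be told apart.

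**Figure D1:**
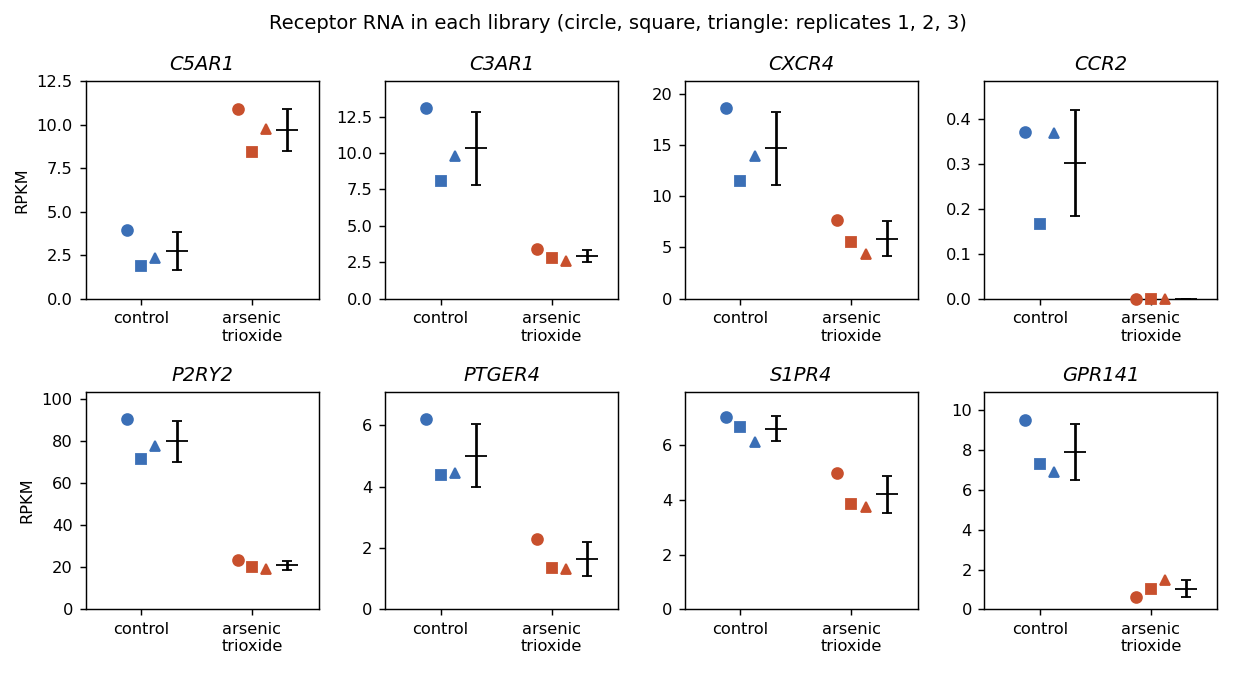
RPKM of the 8 listed receptors in each of the 6 libraries, with the mean and SD of each group beside the points (n = 3 each; every panel has its own axis from 0). C5AR1 is higher in all 3 arsenic trioxide libraries (8.45 to 10.9 RPKM) than in the controls (1.87 to 3.94 RPKM), and the other 7 receptors are lower.

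The receptors for the complement fragments moved in opposite directions. C5AR1 (chromosome 19, 47290023 to 47322066, GRCh38, plus strand) was at 3.94, 1.87 and 2.35 RPKM in control replicates 1, 2 and 3, while treated replicates 1, 2 and 3 had 10.9, 8.45 and 9.75 RPKM. The lowest treated library was 2.14-fold above the highest control, and control replicate 1 stood above the other controls. The group means were 2.72 ± 1.08 and 9.69 ± 1.22 RPKM (SD, n = 3 each), a 3.56-fold higher level on the linear scale and a fitted log2 fold change of 1.55 ± 0.21 SE on the log2(RPKM + 1) scale. C3AR1 (chromosome 12, 8058302 to 8066471, minus strand) was at 13.1, 8.09 and 9.80 RPKM in the controls and 3.39, 2.82 and 2.59 RPKM in the treated libraries. Its level fell 3.52-fold, from 10.3 ± 2.53 to 2.93 ± 0.411 RPKM (SD, n = 3 each; fitted log2 fold change -1.51 ± 0.17 SE), and the highest treated library lay at 0.419 of the lowest control. These values rest on 499 reads of C5AR1 in the controls together and 1876 in the treated libraries, and on 1377 and 412 reads of C3AR1.

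The order of the complement receptors was therefore different in the 2 groups. Within each control library C3AR1 was 3.31- to 4.32-fold above C5AR1 in RPKM, and within each treated library C5AR1 was 2.998- to 3.77-fold above C3AR1. C5AR2, a second receptor for C5a that signals without the usual G proteins, was below the filter, at 0.822, 1.17 and 1.15 RPKM in the controls and 0.461, 0.375 and 0.769 RPKM after arsenic trioxide. The C5AR1 level exceeded that of C5AR2 1.602- to 4.79-fold in the controls and 12.7- to 23.6-fold in the treated libraries. These ratios use the contrast that chose C5AR1 and C3AR1, so no test is given for them.

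**Figure D2:**
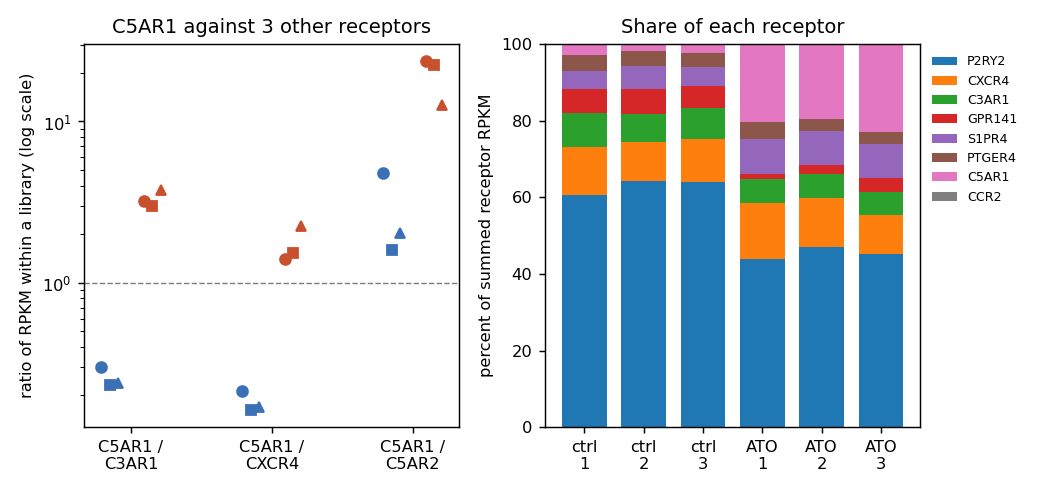
Left, ratio of C5AR1 RPKM to that of C3AR1, CXCR4 and C5AR2 within each library (log axis; blue, control; red, arsenic trioxide; circle, square and triangle for replicates 1, 2 and 3; the dashed line marks equal levels). Right, share of each receptor in the summed RPKM of the 8 receptors, where C5AR1 takes 1.68% to 2.64% in the controls and 19.5% to 23.0% in the treated libraries (ctrl, control; ATO, arsenic trioxide).

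Both chemokine receptors were lower after arsenic trioxide. CXCR4 (chromosome 2, 136114349 to 136118165, minus strand) was at 18.6, 11.5 and 13.9 RPKM in control replicates 1, 2 and 3 and at 7.70, 5.54 and 4.34 RPKM in the treated ones. The groups stayed apart, although the highest treated library reached 0.669 of the lowest control. The means were 14.7 ± 3.597 and 5.86 ± 1.71 RPKM (SD, n = 3 each), a 2.50-fold lower level, with a fitted log2 fold change of -1.20 ± 0.22 SE. CCR2 (chromosome 3, 46353734 to 46360928, plus strand), the monocyte receptor for CCL2, was at 0.371, 0.166 and 0.367 RPKM in the controls, from 28, 12 and 31 reads. No read of CCR2 was counted in any of the 3 treated libraries. With 71 reads among 62171473 in the controls and a floor of 3 reads over the 65462476 of the treated group, CCR2 was at least 24.9-fold lower. This bound takes the 71 control reads as exact and covers only the counting error of the treated group. At 0.302 RPKM on average in the controls, CCR2 was the lowest of the 8 receptors there.

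P2RY2 (chromosome 11, 73218298 to 73236352, plus strand), the receptor for ATP and UTP, was the most abundant of the 8 in every library. It was at 90.6, 71.7 and 77.6 RPKM in control replicates 1, 2 and 3 and at 23.5, 20.4 and 19.1 RPKM in the treated ones. The highest treated library lay at 0.328 of the lowest control. The means were 80.0 ± 9.68 and 21.0 ± 2.25 RPKM (SD, n = 3 each), a 3.81-fold lower level, and the fitted log2 fold change was -1.88 ± 0.11 SE. P2RY2 had the most reads of the set, 14230 in the controls and 3938 after arsenic trioxide. It made up 60.7% to 64.2% of the summed RPKM of the 8 receptors in the controls and 44.1% to 47.0% after arsenic trioxide. The summed level itself was 127.5 ± 19.5 and 46.4 ± 6.08 RPKM (SD, n = 3 each).

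Among the lipid receptors, PTGER4 had the larger difference. PTGER4 (chromosome 5, 40679498 to 40693735, plus strand) was at 6.20, 4.39 and 4.44 RPKM in the controls and 2.29, 1.35 and 1.32 RPKM after arsenic trioxide, with replicate 1 the highest of each group. The means were 5.01 ± 1.03 and 1.65 ± 0.55 RPKM (SD, n = 3 each), 3.04-fold lower, with a fitted log2 fold change of -1.19 ± 0.19 SE. S1PR4 (chromosome 19, 3172346 to 3180332, plus strand) was at 7.02, 6.64 and 6.11 RPKM in the controls and 4.99, 3.86 and 3.75 RPKM after arsenic trioxide. Its groups came closest to each other, with the highest treated library at 0.816 of the lowest control. The S1PR4 means were 6.59 ± 0.456 and 4.20 ± 0.686 RPKM (SD, n = 3 each), 1.57-fold lower, with a fitted log2 fold change of -0.55 ± 0.12 SE. Its call was lost without control replicate 1 (limma-trend adjusted p = 0.0583), control replicate 2 (0.0576) or arsenic trioxide replicate 2 (0.0582), and the calls of the other 6 tested receptors held without any 1 library.

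The orphan receptor GPR141 (chromosome 7, 37683796 to 37833788, plus strand) was at 9.48, 7.28 and 6.91 RPKM in the controls and 0.621, 1.0 and 1.496 RPKM after arsenic trioxide. The treated libraries differed among themselves more than those of any other tested receptor, with a coefficient of variation of 42.2%, and replicate 1 was the lowest of them. From 7.89 ± 1.39 RPKM it fell to 1.04 ± 0.439 RPKM (SD, n = 3 each), 7.60-fold lower, with a fitted log2 fold change of -2.14 ± 0.19 SE. The treated level rests on 32, 49 and 76 reads, against 443, 326 and 361 in the controls. GPR141 was the only one of the 8 whose exons share bases with another listed gene, 61 bases or 2.64% of its exon length, with EPDR1 on the same strand.

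**Figure D3:**
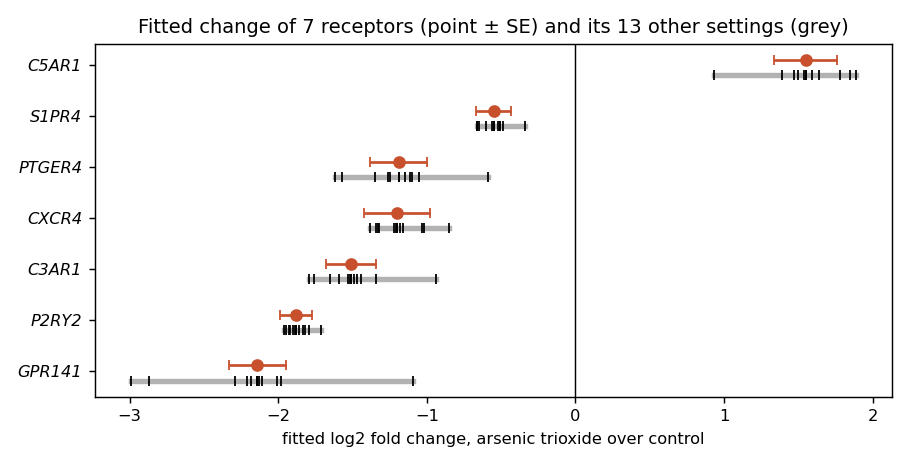
Fitted log2 fold change, arsenic trioxide over control, of the 7 tested receptors (red points, bars ± SE, log2(RPKM + 1) scale) and the same value in the 13 other settings (black ticks on grey bars). C5AR1 lies above 0 and the other 6 lie below 0 in every setting, and the outermost ticks of GPR141, at -1.09 and -2.99, come from a pseudocount of 5 and from limma-voom.

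RPKM is scaled to exon length, so levels can be ordered between receptors. The control order was P2RY2, CXCR4, C3AR1, GPR141, S1PR4, PTGER4, C5AR1 and CCR2. Neighbours from CXCR4 down to PTGER4 overlapped in their library values, while P2RY2 stood above CXCR4, PTGER4 above C5AR1 and C5AR1 above CCR2 without overlap. After arsenic trioxide the order was P2RY2, C5AR1, CXCR4, S1PR4, C3AR1, PTGER4, GPR141 and CCR2. There CXCR4 overlapped with S1PR4 and PTGER4 with GPR141, and the other neighbours did not overlap. C5AR1 thus stood at rank 7 of 8 in the controls and rank 2 after arsenic trioxide, and GPR141 at ranks 4 and 7.

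The spread within the groups had a common side. Control replicate 1 was the highest control for all 7 tested receptors, C5AR1 included, while it was the highest control for 33.3% of all tested genes. Arsenic trioxide replicate 1 was the highest treated library for 6 of the 7, the exception being GPR141, and for 26.6% of all tested genes. The coefficient of variation ran from 6.91% (S1PR4) to 39.8% (C5AR1) in the controls and from 10.7% (P2RY2) to 42.2% (GPR141) after arsenic trioxide. Without control replicate 1 the fitted log2 fold change was 1.78 for C5AR1, -1.34 for C3AR1, -1.02 for CXCR4 and -1.05 for PTGER4.

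The bases just upstream of the start site are shown for the receptor that rose and for 3 that fell. The part of these bases in the changes was not tested. The set of RefSeq windows used here, in build GRCh38.p14, covers 9 of the 10 receptors and lacks P2RY2. Each run reads 5′ to 3′ on the gene's strand within the 250 bases before the RefSeq start, without bases that lie in a GENCODE exon, so C3AR1 and CXCR4 are shorter. Capitals mark matches, on either strand, to 8 short motifs given after the sequences. The runs are chr19:47309611-47309860 for C5AR1 (inside an intron of the longest GENCODE model), chr12:8066472-8066609 for C3AR1, chr2:136118166-136118399 for CXCR4 and chr7:37683516-37683765 for GPR141.
C5AR1: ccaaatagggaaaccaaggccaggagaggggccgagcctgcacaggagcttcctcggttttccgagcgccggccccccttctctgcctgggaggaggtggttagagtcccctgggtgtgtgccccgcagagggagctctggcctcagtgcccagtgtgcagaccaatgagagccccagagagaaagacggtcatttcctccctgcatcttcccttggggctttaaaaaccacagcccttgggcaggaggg
C3AR1: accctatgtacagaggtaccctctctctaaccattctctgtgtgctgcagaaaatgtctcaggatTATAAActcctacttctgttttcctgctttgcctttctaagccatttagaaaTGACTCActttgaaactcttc
CXCR4: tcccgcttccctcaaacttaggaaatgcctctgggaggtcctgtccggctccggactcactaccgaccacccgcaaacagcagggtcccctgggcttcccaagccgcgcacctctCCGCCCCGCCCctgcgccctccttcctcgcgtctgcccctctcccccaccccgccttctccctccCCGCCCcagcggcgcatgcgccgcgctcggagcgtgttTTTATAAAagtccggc
GPR141: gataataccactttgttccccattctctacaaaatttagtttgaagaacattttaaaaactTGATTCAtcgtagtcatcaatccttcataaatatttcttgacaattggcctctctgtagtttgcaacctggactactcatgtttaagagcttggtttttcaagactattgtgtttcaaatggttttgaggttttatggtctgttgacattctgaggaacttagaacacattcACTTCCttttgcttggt

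Matches in the whole windows of 250 bases were counted for the 9 receptors and set beside 35116 RefSeq windows of the same length, which include alternative starts of the same gene. TGANTCA, a loose form of the AP-1 site with any base in the middle, was found in 3 of 9 and in 6.57% of all windows. The 3 were C3AR1 (TGACTCA at -133 to -127 from the start), GPR141 (TGATTCA at -189 to -183) and CCR2. Matches with a middle base outside the stricter AP-1 site are counted here too. GGAAGT, the core that ETS factors such as PU.1 bind, was found in GPR141 and FPR1, and in 19.5% of all windows. GGGCGG, the GC box, was found in CXCR4, PTGER4 and PTGER2, against 42.6%, and TATAAA, the TATA box, in C3AR1 and CXCR4, against 10.7%. AGGTCA, a single unit of the retinoid receptor element and not the whole element, occurred in C3AR1 within a GENCODE exon, which is not printed. It was found in 12.1% of all windows. CACGTG (the MYC E box, 6.34% of all windows), TGACNNNGC (the antioxidant element, 10.9%) and TGATGNAA (the ATF4 element, 3.14%) had no match in the 9 windows. The windows of C5AR1, which rose, and of S1PR4, which fell, held none of the 8 motifs. G and C made up 62.0% of the C5AR1 window, 40.8% of C3AR1, 68.0% of CXCR4 and 34.4% of GPR141, with a median of 58.0% over all windows. A match is a description of letters and not a site of binding.

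To set the receptors beside the rest of their pathway, 8 lists were drawn up from general knowledge: 4 of other receptors and 4 of ligands, G proteins, effectors and proteins that end signalling. Of their 166 genes 123 were listed and 90 tested, of which 11 rose, 20 fell and 59 did not pass (limma-trend, Benjamini-Hochberg adjusted p under 0.05). That is 12.2% higher and 22.2% lower, beside 12% and 13.4% of all tested genes, and the median log2 fold change was -0.07. Some of the genes named below passed the filter only through their higher group. GPR35 had a control mean under 1 RPKM, and PTAFR, OXER1 and PDE4B had a treated mean under 1 RPKM. Without arsenic trioxide replicate 2 the count of lower genes was 13 in these lists and 1645 in place of 2252 over all tested genes. With limma-voom on the recovered reads the count of higher genes was 18 in these lists, and over all tested genes it was 2504 in place of 2021.

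**Figure D4:**
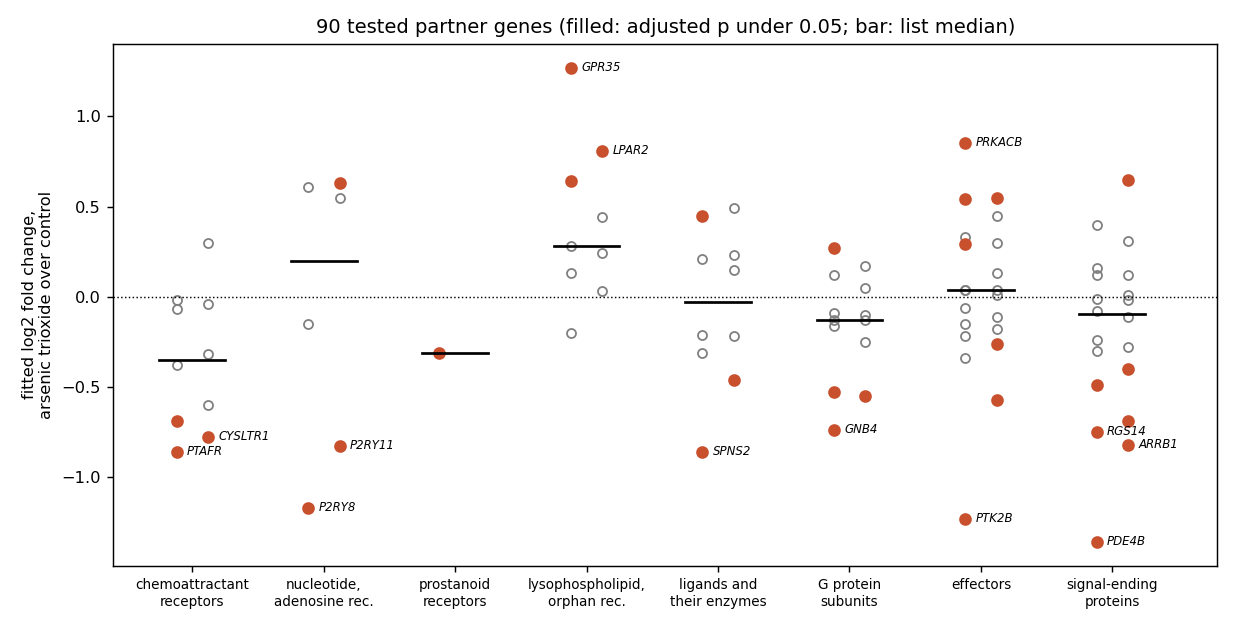
Fitted log2 fold change of the 90 tested genes of the 8 partner lists, 1 point per gene (filled, adjusted p under 0.05 in limma-trend; open, not called; bar, list median; called genes past 0.7 in size are named). PDE4B, PTK2B and P2RY8 lie lowest and GPR35 highest, and the list medians lie between -0.35 and 0.28.

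Of 30 other chemoattractant receptors 18 were listed and 10 tested, with a median log2 fold change of -0.35. Limma-trend called 3 lower and 0 higher, where 13.4% of all tested genes were called lower and 12% higher. At an unadjusted p under 0.05 the counts were 5 lower and 0 higher, where 20.3% of all tested genes were lower and 18.9% higher. Limma-voom also called 5 lower and 0 higher, beside 16.3% and 14.9% of all tested genes. PTAFR, the receptor for platelet-activating factor, fell from 1.88 ± 0.269 to 0.595 ± 0.205 RPKM (SD, n = 3 each; limma-trend adjusted p = 0.00905). GPR183, an oxysterol receptor that guides cell positioning, fell from 3.802 ± 0.679 to 1.96 ± 0.0783 RPKM (adjusted p = 0.0136). CYSLTR1, a cysteinyl leukotriene receptor, fell from 5.74 ± 0.835 to 2.98 ± 0.888 RPKM (adjusted p = 0.0274), a call lost without control replicate 2 (0.0744), control replicate 3 (0.0852) or arsenic trioxide replicate 2 (0.0512). OXER1, a receptor for oxidised fatty acids, was at 1.63 ± 0.164 and 0.756 ± 0.375 RPKM (adjusted p = 0.0528), and was called without arsenic trioxide replicate 3 (0.0281).

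Among other nucleotide and adenosine receptors 13 of 17 were listed and 6 tested, with a median of 0.20. The limma-trend calls were 1 higher and 2 lower, beside 12% and 13.4% of all tested genes. P2RY8, a receptor of this family by sequence that couples to the G protein G13, was at 42.9, 43.2 and 40.7 RPKM in the controls and 18.8, 19.95 and 16.2 RPKM after arsenic trioxide (log2 fold change -1.17 ± 0.08 SE, adjusted p in limma-trend = 0.000405). In these cells it was the next most abundant listed gene of the family after P2RY2. P2RY11, an ATP receptor that raises cyclic AMP, fell from 7.70 ± 1.92 to 3.81 ± 0.295 RPKM (adjusted p = 0.0158), and the call was lost without control replicate 3 (0.0545) or arsenic trioxide replicate 2 (0.0504). Of its exon length 9.15% is shared with other listed genes, EIF3G the most, and 50.0% with an annotated read-through gene of PPAN and P2RY11 on the same strand, so its level is uncertain. The ATP-gated channel P2RX4 rose from 3.44 ± 0.144 to 5.88 ± 0.426 RPKM (adjusted p = 0.00582). P2RY1, an ADP receptor, was at 1.98 ± 0.286 and 3.44 ± 1.047 RPKM (adjusted p = 0.0742), and was called without arsenic trioxide replicate 2 (0.0477).

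TBXA2R, the thromboxane receptor, was the single listed gene in the list of 6 other prostanoid receptors. PTGDR2, a prostaglandin D2 receptor counted with the chemoattractant receptors, was also listed, below the filter. TBXA2R fell from 16.4 ± 0.820 to 13.04 ± 0.770 RPKM (SD, n = 3 each; log2 fold change -0.31 ± 0.07 SE, adjusted p in limma-trend = 0.021). The call was lost without control replicate 2 (0.072) or 3 (0.0553) and without arsenic trioxide replicate 2 (0.0625) or 3 (0.0545). TBXA2R, at 15.9 to 17.4 RPKM in the controls and 12.5 to 13.9 RPKM after arsenic trioxide, was above PTGER4 in every library.

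Other lysophospholipid and orphan receptors had 9 tested members, with a median of 0.28. In limma-trend 3 were higher and 0 lower, beside 12% and 13.4% of all tested genes. An unadjusted p under 0.05 (18.9% of all tested genes higher, 20.3% lower) and limma-voom (14.9% and 16.3%) each gave 3 higher and 0 lower. GPR35, a receptor of debated ligand, was at 0.642, 0.487 and 0.739 RPKM in the controls and 3.08, 2.75 and 2.92 RPKM after arsenic trioxide, a 4.68-fold rise (log2 fold change 1.27 ± 0.13 SE, adjusted p in limma-trend = 0.00135). Of the GPR35 exon length 12.9% is shared with other listed genes, CAPN10 the most, and reads from those bases cannot be told apart. LPAR2, a lysophosphatidic acid receptor, rose from 2.08 ± 0.113 to 4.39 ± 0.14 RPKM (adjusted p = 0.00312). S1PR3 rose from 2.96 ± 0.358 to 5.15 ± 0.418 RPKM (adjusted p = 0.0104), while S1PR4, which binds the same lipid, was lower. S1PR4 was 1.85- to 2.71-fold above S1PR3 within the control libraries and at 0.691 to 0.93 of it within the treated ones. GPR160, an orphan, was at 2.31 ± 0.324 and 3.03 ± 0.54 RPKM (adjusted p = 0.209).

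Of 24 genes for ligands and their enzymes 10 were tested, with a median of -0.03. By limma-trend 1 was higher and 2 were lower, beside 12% and 13.4% of all tested genes. SPNS2, which exports sphingosine 1-phosphate, fell from 7.93 ± 0.445 to 3.93 ± 0.179 RPKM (SD, n = 3 each; limma-trend adjusted p = 0.00159), and SGPL1, the lyase that breaks this lipid down, rose from 7.07 ± 0.261 to 10.03 ± 1.005 RPKM (adjusted p = 0.0142). PTGES2, a prostaglandin E synthase, fell from 27.1 ± 1.96 to 19.5 ± 2.90 RPKM (adjusted p = 0.0234). That call was lost without control replicate 1 (0.07) or 2 (0.0703) and without arsenic trioxide replicate 2 (0.0658) or 3 (0.0659). PTGES3, named as a prostaglandin synthase and better known as the HSP90 cochaperone p23, was at 135 ± 4.98 and 156 ± 11.9 RPKM (adjusted p = 0.0647), and was called without arsenic trioxide replicate 1 (0.0476).

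In the G protein list 13 of 20 subunits were tested, with a median of -0.13. Limma-trend called 1 higher and 3 lower, beside 12% and 13.4% of all tested genes. GNB4, a beta subunit, fell from 18.4 ± 1.505 to 10.6 ± 0.713 RPKM (SD, n = 3 each; limma-trend adjusted p = 0.00194). GNAQ, the alpha subunit through which P2RY2 activates phospholipase C, fell from 38.8 ± 1.604 to 26.4 ± 3.62 RPKM (adjusted p = 0.00998). GNA15, its relative in blood cells, fell from 17.7 ± 3.803 to 11.8 ± 1.15 RPKM (adjusted p = 0.0408), and kept its call when control replicate 2 was left out but lost it without any other library, with adjusted p-values of 0.0655 and 0.0803 without control replicates 1 and 3 and of 0.115, 0.0705 and 0.0792 without arsenic trioxide replicates 1, 2 and 3. GNAS, the alpha subunit that carries the PTGER4 signal to adenylyl cyclase, rose from 32.4 ± 1.34 to 39.2 ± 0.793 RPKM (log2 fold change 0.27 ± 0.05 SE, adjusted p = 0.0128).

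Among effectors 21 of 28 were tested, with a median of 0.04. Called in limma-trend were 4 higher and 3 lower, beside 12% and 13.4% of all tested genes. PTK2B, a calcium-sensitive kinase of migrating cells, fell from 15.4 ± 0.648 to 6.03 ± 0.637 RPKM (SD, n = 3 each; limma-trend adjusted p = 0.000496). ELMO1, the partner of DOCK2 in activating the small GTPase RAC, rose from 16.6 ± 1.43 to 24.8 ± 1.69 RPKM (adjusted p = 0.00511). PRKACB, a catalytic subunit of the cyclic AMP-dependent kinase, rose from 6.30 ± 1.45 to 11.98 ± 1.28 RPKM (adjusted p = 0.0113). CREB1, a transcription factor that this kinase acts on, rose from 11.3 ± 0.374 to 14.01 ± 0.809 RPKM (adjusted p = 0.0255). The CREB1 call was lost without any 1 library except arsenic trioxide replicate 3, with adjusted p-values of 0.062, 0.056 and 0.0861 without control replicates 1, 2 and 3, and of 0.0603 and 0.0755 without arsenic trioxide replicates 1 and 2.

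The proteins that end receptor signalling had 20 of 22 members tested, with a median of -0.10. Among these 1 rose and 6 fell in limma-trend, beside 12% and 13.4% of all tested genes. PDE4B, a phosphodiesterase that breaks down cyclic AMP, was at 2.40, 4.32 and 4.10 RPKM in the controls and 0.804, 1.054 and 0.469 RPKM after arsenic trioxide, 4.66-fold lower (log2 fold change -1.36 ± 0.22 SE, adjusted p in limma-trend = 0.00606). ARRB1, the beta-arrestin that uncouples and internalises many of these receptors, fell from 18.1 ± 0.847 to 9.82 ± 0.99 RPKM (adjusted p = 0.00156). The RGS proteins RGS14 and RGS19, which speed the switching off of G protein alpha subunits, fell from 6.38 ± 0.168 to 3.40 ± 0.487 RPKM (adjusted p = 0.00487) and from 18.3 ± 1.24 to 12.7 ± 0.283 RPKM (adjusted p = 0.00399). Of the tested genes of this list 35.0% were called, beside 25.4% of all tested genes.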

How the data were processed

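Total RNA of 6 NB4 libraries was sequenced after removal of ribosomal RNA and a NEBNext Ultra library kit, per the labels, whose libraries carry no strand mark. HISAT2 2.1.0, HTSeq and DESeq2 and the build hg38 are named in the submitters' processing notes, and duplicate reads were removed, per the file headers. The authors deposited RPKM per gene and library in 1 table, with a mean normalised signal, a log2 fold change, its standard error and test statistic (score columns) and p-values for each gene. The deposited log2 fold changes are quoted once, in the closing section.

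Whole reads were recovered from RPKM with GENCODE 29 exon lengths for 93.0% of genes, and with the deposited mean for 100.0%, within 0.01 reads. Log2(RPKM + 1) was tested with limma-trend (limma 3.58.1, R 4.3.3) over the 16803 of 23858 genes whose mean reached 1 RPKM. P-values were adjusted by Benjamini-Hochberg over all of them, with a threshold of 0.05. The script was checked on simulated data. Without strand, reads of overlapping genes cannot be told apart.

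The receptors and lists were chosen with earlier results of these data known. Of each list the text names the 4 tested genes with the lowest p, and all listed genes where fewer than 8 are listed. C5AR2 was named after its values were seen. Alternatives were other scaling factors, pseudocounts of 0.1 and 5, no filter, limma-voom on recovered reads, a replicate block and each library left out. The result of 1 marker list is not reported here.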

Additional observations from a re-analysis of the deposited data

How the results depend on the processing

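No tested receptor and no named partner gene changed direction in any setting; the other partner genes were not followed one by one. The 7 tested receptors, with CCR2 where no filter was used, kept their calls in 89 comparisons, and the 3 losses were those of S1PR4. A pseudocount of 5 shrank the log2 fold change by its construction, to 0.93 for C5AR1, -0.94 for C3AR1, -0.59 for PTGER4, -0.34 for S1PR4 and -1.09 for GPR141. With no filter 8 receptors were called, beside 2404 higher and 2278 lower genes among all 23858 listed. CCR2 then had a fitted log2 fold change of -0.38 in limma-trend and, in limma-voom added after seeing the data, of -5.58; both depend on the offset and neither is a bound. Named partner genes kept their side of the threshold in 340 comparisons, lost a call in 28 and gained one in 9. Leaving out 1 library gave 1331 to 1525 genes higher and 1427 to 1908 lower over all tested genes, 8 to 11 partner genes higher, 13 to 17 lower and 6 to 7 receptors called. The count of higher genes was 1341 without control replicate 3 and 1331 without arsenic trioxide replicate 1, and the count of lower genes was 1427 without control replicate 2 and 1487 without control replicate 3. These fits have fewer samples. Limma-voom called 18 partner genes higher in place of 11, and 2504 of all tested genes in place of 2021; the cause was not tested.

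Over all tested genes, samples with the same replicate number showed little common deviation (r = -0.085, 0.148 and -0.083 for numbers 1, 2 and 3). With 3 libraries a group this cannot settle whether the numbers pair them. A replicate block gave 1460 higher and 1616 lower genes, 8 and 15 partner genes and 7 receptors.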

Other observations

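The span of GPR141 on chromosome 7 overlaps that of EPDR1, which encodes a lysosomal glycoprotein, on the same strand. EPDR1 was at 19.96, 19.2 and 20.3 RPKM in the controls and 33.5, 29.5 and 39.4 RPKM after arsenic trioxide, and its fitted change was 0.74 ± 0.10 SE in log2 units (adjusted p in limma-trend = 0.00356), while GPR141 was lower. The pseudogene GPR141BP, which also overlaps the GPR141 span, had 14, 30 and 25 reads in the controls and 3, 1 and 3 after arsenic trioxide. It was below the filter and not tested.

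Genes were ranked by how closely they followed a receptor over the 6 libraries, by Pearson's r of log2(RPKM + 1) as a description. The protein-coding genes with the highest r included BRF2 (0.995) and LONP1 (0.995) for C5AR1, and ZNFX1 (0.997) and B3GNT2 (0.997) for C3AR1. For P2RY2 they included NARFL (0.999) and TMEM173 (0.999), and for GPR141 RPS6KB1 (0.998) and ELOVL3 (0.998). The 6 points share the split into groups.

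In the authors' deposited table the log2 fold change was 1.81 for C5AR1, -1.83 for C3AR1, -1.34 for CXCR4, -1.94 for P2RY2, -1.61 for PTGER4, -2.95 for GPR141, -0.66 for S1PR4 and -7.09 for CCR2, where a group without reads makes the fitted value no bound. The deposited table and the limma-trend fit gave the same direction for the 7 receptors in both.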
